A study of Mus musculus with 8 samples.

Results

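A set of 10 genes of the actin cytoskeleton and its neighbours was followed in mouse 3T3-L1 adipocytes treated with the PI3K inhibitor A66, with palmitate or with both. They were Fscn1, Actb, Actg1, Acta2, Tagln, Cnn1, Myl9, Tpm1, Tpm2 and Vim, and they make up 10 of the 43629 genes in the count table. Fscn1 was taken because the study had singled it out in its A66 and untreated libraries, and the other 9 because they encode actins, tropomyosins or proteins linked to serum response factor (SRF). The members, and the lists set beside them, were chosen with earlier results of these data known. Counts of genes called among them are therefore a description. All 10 were found by symbol, and 9 passed the filter on low counts. Cnn1 did not.

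3T3-L1 cells are mouse pre-adipocytes, kept as a line, which become adipocytes when induced. All cultures were induced with insulin, dexamethasone, isobutylmethylxanthine and rosiglitazone, and were treated on day 8 for 24 h. The 4 groups were untreated cells, cells with 2 µM A66, cells with 0.5 mM palmitate bound to BSA, and cells with 0.5 mM palmitate plus 2 µM A66, with 2 libraries in each group. A66 selectively inhibits p110α, one of the catalytic subunits of the lipid kinase PI3K, and palmitate is a saturated fatty acid. The labels name no BSA-only control and no vehicle control, so BSA and the fatty acid cannot be told apart in the palmitate groups. By the labels, A66 and any solvent it came in cannot be told apart in the A66 groups either. The study describes the repeats as biological, and p-values measure the spread between these pairs of libraries. A66 blocks an enzyme and deletes no gene, so there is no targeted transcript to check the labels with, and every direction given rests on them. Were the untreated and A66 names swapped, every sign given for A66 alone would turn. The separate libraries with palmitate gave 8 of the 9 tested members a positive A66 value, where 49.72% of all genes were positive. A66 alone did so for all 9, where 49.63% of all genes were positive. Several members vary together over the libraries, so these are not independent signs and do not test the labels. A swap in both pairs was not tested.

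Actin exists as free monomers and as filaments. Monomers hold the coactivator MRTF in the cytoplasm, and when they are used up in filaments MRTF enters the nucleus and works with SRF, which binds a DNA element called the CArG box. Genes of actins, of actin-binding proteins such as transgelin and calponin, and of focal adhesions are well-known targets. In adipocytes, loss of stress fibres goes with differentiation, and actin beneath the plasma membrane takes part in the movement of glucose transporters after insulin.

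Polyadenylated RNA was sequenced, and the libraries held between 42247091 and 57529803 counts. Levels are given as CPM (counts scaled to the size of the library, with TMM factors). At this depth 3 counts, taken as the floor, were worth 0.0521 to 0.0710 CPM by library size alone, without TMM factors, which covers counting error only. Mitochondrial genes took 10.5 to 11.8% of the counts. The adipocyte markers were abundant in every library, with Adipoq between 2049 and 2547 CPM and Fabp4 between 2639 and 3054 CPM, and RNA of fibroblast and progenitor markers was present too, with Pdgfra between 87.9 and 108 CPM and Col1a1 between 576 and 773 CPM. Of the 12 genes on that marker list only Dlk1 had no count in any library, and Cd34 was low, at 0.173 to 0.392 CPM.

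The members spanned a wide range of levels. Fscn1 ranged from 51.01 to 63.0 CPM over the 8 libraries, a ratio of 1.24, whereas Tagln had the widest ratio of the tested members, 1.87. Per kilobase of exon (all annotated exons of a gene merged), a scale on which genes can be compared, the untreated level was 273 ± 6.58 CPM per kb for Actb (SD, n = 2), 199 ± 8.49 for Actg1, 192 ± 9.05 for Vim and 86.5 ± 0.907 for Acta2. Actg1 and Vim overlapped between the 2 untreated libraries, and each of the other neighbours in the order was separate. Tpm1 followed at 18.3 ± 0.209 CPM per kb and Fscn1 at 17.2 ± 0.371. Tagln reached 11.3 ± 0.698, Myl9 6.44 ± 0.0984 and Tpm2 3.08 ± 0.000590 CPM per kb. The order at the top depends on the length used. Per kilobase of the longest protein-coding transcript, a length chosen after seeing the data, Vim was highest at 415 ± 19.6 (SD, n = 2), followed by Actb at 381 ± 9.19 and Actg1 at 271 ± 11.6, Tpm1 stood at 41.1 ± 0.470, and the order of the other members did not change. On both scales the cytoplasmic actins and vimentin stood highest, and the genes of smooth muscle type, apart from Acta2, stood low. Cnn1, which encodes calponin 1, had between 0 and 5 counts in each library, so no change in it was detectable at this depth. Its 8 counts in the order untreated, A66, palmitate, palmitate plus A66 were 1 and 4, 0 and 3, 0 and 5, and 0 and 2.

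**Figure D1:**
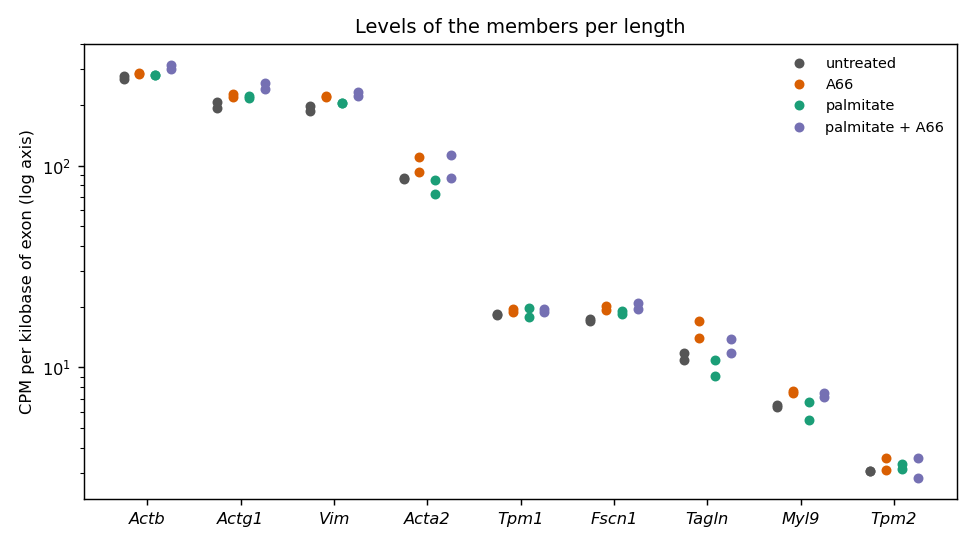
CPM per kilobase of exon (log axis) of the 9 members above the filter, ordered by their untreated mean, with 1 point per library coloured by group. Actb, Actg1, Vim and Acta2 lie above the other 5 genes in every library.

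The comparison of A66 with untreated cells asked how these genes differed when A66 was added without palmitate. All 9 tested members had a positive log2 fold change, between 0.069 and 0.45, and in all 9 both A66 libraries lay above both untreated libraries. Across all 14158 genes tested, 20.3% showed such a separation upward. In the edgeR quasi-likelihood test, with Benjamini-Hochberg adjusted p-values, Tagln, Vim, Acta2, Actg1 and Fscn1 had an adjusted p under 0.05 and were higher, and no member was lower. Among all genes 152 were higher, or 1.07%. Without Fscn1, which the study chose on these libraries, 4 of 8 were called. Those 8 were also chosen with earlier results of these data known, so these counts and medians are a description. The median log2 fold change of the 9 members was 0.19, against -0.0011 over all genes tested, and without Fscn1 it was 0.18. The changes were small, from 4.89% for Tpm1 to 36.7% for Tagln.

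Fscn1 encodes fascin, which ties actin filaments into tight parallel bundles such as those of filopodia. The gene lies on chromosome 5 between 142960343 and 142973185 on the plus strand (GRCm38). Fscn1 measured 52.6 and 51.01 CPM untreated, 60.5 and 58.3 in A66, 57.0 and 55.4 in palmitate, and 63.0 and 58.9 under both agents. The untreated libraries were the lowest, and the libraries of each treated group lay above them. With A66 the level was 14.9% higher, a log2 fold change of 0.20 ± 0.050 (SE). Since the study picked Fscn1 on these same 4 libraries, this value is a description, and its adjusted p of 0.0367 in edgeR is not independent evidence. The direction that the study gave for Fscn1 is not reported here. Over its 11 alternative settings this adjusted p ran from 0.0116 to 0.447, being above 0.05 without untreated replicate 2 (0.0557), A66 replicate 1 (0.447) or A66 replicate 2 (0.142), with library size only and in DESeq2, and the fold change stayed positive. Actb, whose gene lies on the same chromosome between 142903115 and 142906754 on the minus strand, is the nearest of the other members on the map.

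Actb and Actg1 encode the cytoplasmic β- and γ-actin found in nearly every cell. Actb measured 744 and 719 CPM untreated, 764 and 773 in A66, 756 and 754 in palmitate, and 847 and 802 under both agents. The A66 libraries lay above the untreated ones by less than the test could call (log2 fold change 0.075 ± 0.037, adjusted p = 0.415 in edgeR). Actg1, on chromosome 11 between 120345690 and 120348542 on the minus strand, measured 514 and 546 CPM untreated, 580.4 and 602 in A66, 585 and 572 in palmitate, and 681 and 636 under both agents. Untreated cells were again lowest and doubly treated cells highest, without overlap. With A66 Actg1 rose by 11.8% (log2 fold change 0.16 ± 0.040, adjusted p = 0.0382 in edgeR). This call was lost without untreated replicate 1 (adjusted p = 0.101), without A66 replicate 1 (0.114) and without A66 replicate 2 (0.417), with all 8 libraries in the fit (0.0877) and with scaling by library size only (0.0693).

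Promoter windows of 250 bases before to 50 bases after the start were available from RefSeq (GRCm38.p6) for 8 of the 10 members, Fscn1, Actg1, Acta2, Cnn1, Myl9, Tpm1, Tpm2 and Vim. The CArG box was searched as an exact match to CCWWWWWWGG, where W is A or T. Both strands were covered, since it reads as the same pattern on either strand. Near matches were not counted, so a window without an exact match can still hold a looser box. The Acta2 window, for example, has no exact match but holds ccctatatgg. No other motif was searched. An exact match was present in 2 of the 8 windows, those of Actg1 and Myl9, or 25.0%, against 1.63% of all 32851 windows in the table. A match is a description of the letters, not a site. The 2 windows are shown with the box in capitals because they place the SRF element in members described here, on chr11:120348446-120348745 (minus strand), where the box begins 90 bases before the start, and on chr2:156775214-156775513 (plus strand), where it begins 161 bases before the start.
Actg1: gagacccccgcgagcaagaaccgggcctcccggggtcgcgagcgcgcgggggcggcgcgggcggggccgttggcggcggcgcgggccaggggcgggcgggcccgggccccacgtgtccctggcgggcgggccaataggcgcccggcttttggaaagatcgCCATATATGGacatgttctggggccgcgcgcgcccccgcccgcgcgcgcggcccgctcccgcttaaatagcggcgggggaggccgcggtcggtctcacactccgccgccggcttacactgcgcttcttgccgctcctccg
Myl9: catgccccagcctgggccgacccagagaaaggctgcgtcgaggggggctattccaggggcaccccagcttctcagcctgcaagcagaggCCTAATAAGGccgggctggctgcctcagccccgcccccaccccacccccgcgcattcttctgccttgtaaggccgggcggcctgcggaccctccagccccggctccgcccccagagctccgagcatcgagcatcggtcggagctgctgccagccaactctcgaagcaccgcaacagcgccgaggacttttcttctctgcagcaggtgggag

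Acta2, Tagln, Myl9 and Cnn1 belong to the contractile genes of smooth muscle and myofibroblasts. Acta2, smooth muscle α-actin, lies on chromosome 19 between 34241090 and 34255590 on the minus strand and measured 191 and 189 CPM untreated, 204 and 243 in A66, 187 and 158 in palmitate, and 248 and 190.5 under both agents. The second library of the A66 group and the first of the doubly treated group stood well above their partners. With A66 Acta2 rose by 17.7% (log2 fold change 0.23 ± 0.055, adjusted p = 0.0262 in edgeR). This call did not hold in DESeq2 (adjusted p = 0.553), in the fit on all 8 libraries (0.251) or without A66 replicate 2, where the log2 fold change was 0.11 (0.623), and without A66 replicate 1 it was 0.36.

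Tagln encodes transgelin, or SM22α, an actin-binding protein and a classic SRF target. Its gene lies on chromosome 9 between 45929619 and 45936058 on the minus strand. It measured 23.5 and 21.6 CPM untreated, 27.6 and 33.9 in A66, 21.7 and 18.1 in palmitate, and 27.4 and 23.4 under both agents. Both A66 libraries lay above the other 6, the first of them closely followed by the first doubly treated library. Tagln showed the largest rise of the members with A66, 36.7% (log2 fold change 0.45 ± 0.082, adjusted p = 0.00285 in edgeR). It kept an adjusted p under 0.05 in 10 of its 11 alternatives, and the exception was the fit without A66 replicate 2 (log2 fold change 0.30, adjusted p = 0.156). Tagln overlaps Pcsk7 on the opposite strand. Pcsk7 had 11261 counts over all libraries, and the sources used here do not give the strand setting of the counting.

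Myl9, the regulatory light chain of smooth muscle myosin, lies on chromosome 2 between 156775420 and 156781658 on the plus strand and carries the second of the boxes shown above. It measured 7.56 and 7.40 CPM untreated, 8.63 and 8.82 in A66, 7.85 and 6.34 in palmitate, and 8.29 and 8.71 under both agents. Every library with A66 lay above every library without it. Its difference with A66 (log2 fold change 0.23 ± 0.11, adjusted p = 0.385 in edgeR) was close in size to that of Acta2, with a wider error, and was not called.

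Tpm1 and Tpm2 encode tropomyosins, rod-like proteins that lie along the actin filament and regulate access of myosin. Tpm1, on chromosome 9 between 67022590 and 67049406 on the minus strand, was the steadiest tested member (highest over lowest library 1.11), at 120 and 118 CPM untreated, 122 and 126 in A66, 127 and 115 in palmitate, and 126 and 122 under both agents. Its palmitate libraries bracketed all the others. Tpm2, on chromosome 4 between 43514711 and 43523765 on the minus strand, measured 8.95 and 8.95 CPM, 8.9995 and 10.3 CPM, 9.61 and 9.16 CPM, and 10.3 and 8.21 CPM in the same order of groups. Neither was called with A66, with log2 fold changes of 0.069 ± 0.042 for Tpm1 (adjusted p = 0.532 in edgeR) and 0.11 ± 0.11 for Tpm2 (adjusted p = 0.738).

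Vim encodes vimentin, the intermediate filament protein of mesenchymal cells, which in adipocytes surrounds the lipid droplet. It lies on chromosome 2 between 13573927 and 13582826 on the plus strand and measured 880 and 940.5 CPM untreated, 1032 and 1045 in A66, 971 and 973 in palmitate, and 1100 and 1050 under both agents. The 4 groups did not overlap, with untreated cells lowest and doubly treated cells highest. With A66 Vim rose by 14.4% (log2 fold change 0.19 ± 0.039, adjusted p = 0.0082 in edgeR), and this call was lost without A66 replicate 1 (adjusted p = 0.0505) or replicate 2 (0.127). Without A66 replicate 2 no member was called, and the count over all genes fell from 261 to 98.

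**Figure D2:**
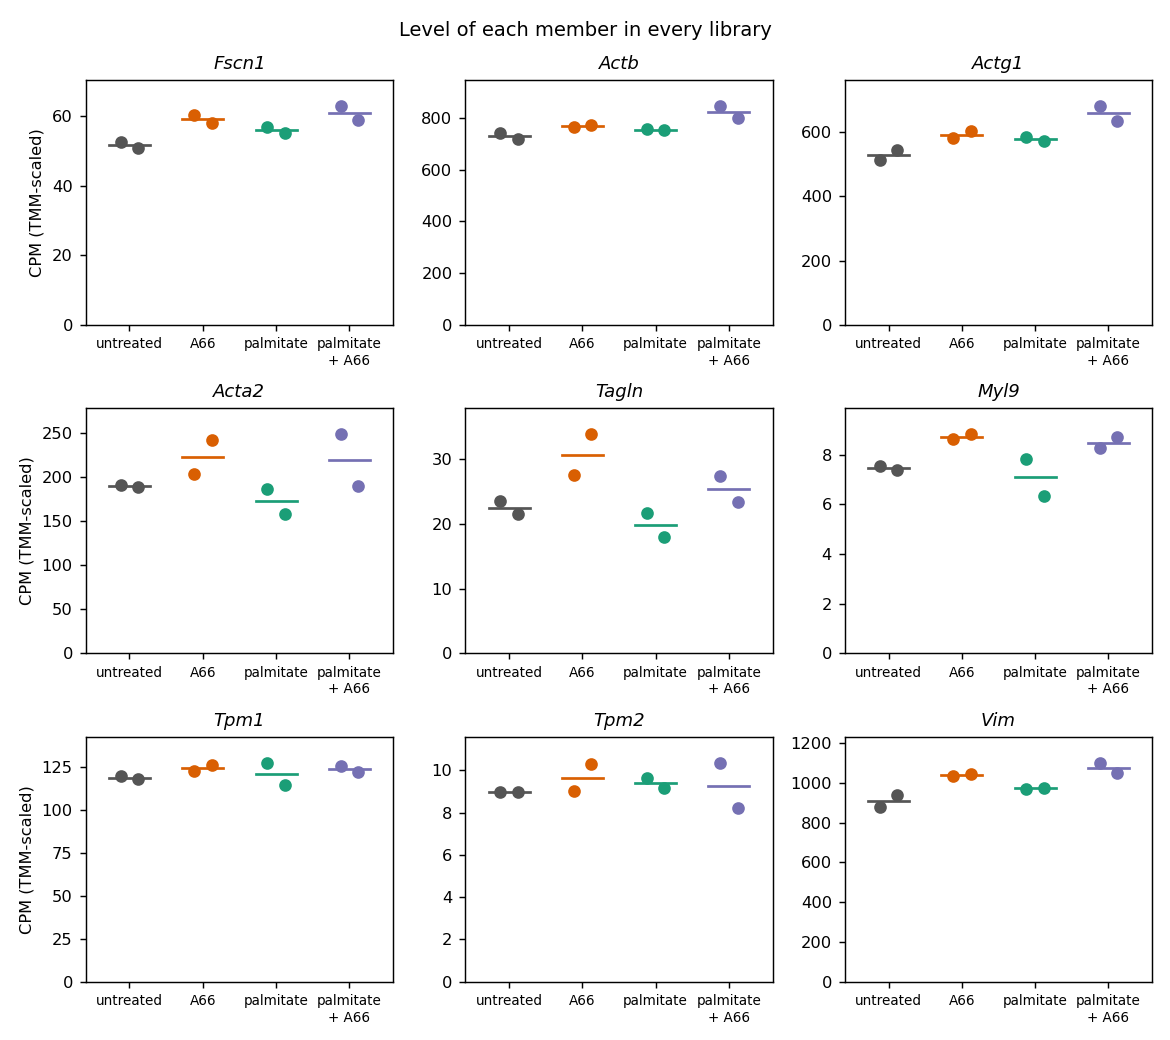
TMM-scaled CPM (linear axes from 0) of the 9 tested members in each of the 8 libraries. Points are libraries, with replicate 1 on the left, and bars are means of 2. In all 9 panels the A66 points lie above the untreated points, and Acta2 under both agents shows the widest gap within a group relative to its level, 248 against 190.5 CPM.

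Palmitate plus A66 was compared with palmitate to ask whether A66 moved the members in the same way when the fatty acid was present. These 4 libraries are separate from those of the comparison above. Actg1, Acta2 and Tagln rose, by 13.9%, 27.2% and 27.6%, and no member fell. Of all 14587 genes tested, 142 were higher, or 0.973%. The log2 fold changes were 0.19 ± 0.044 for Actg1 (adjusted p = 0.0193 in edgeR), 0.35 ± 0.088 for Acta2 (0.0305) and 0.35 ± 0.096 for Tagln (0.0488). The median of the 9 members was 0.14, against -0.0008 over all genes, 8 of the 9 were positive, and in 7 both doubly treated libraries lay above both palmitate libraries, where 21.9% of all genes did so.

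The remaining 6 members were not called with A66 in palmitate. Vim came nearest, with a log2 fold change of 0.14 ± 0.043 (adjusted p = 0.0746 in edgeR), followed by Actb with 0.13 ± 0.041 (0.113). Fscn1, whose palmitate libraries the study did not use to choose it, had a log2 fold change of 0.12 ± 0.049 (unadjusted p = 0.0265, adjusted p = 0.256 in edgeR), and its doubly treated libraries lay above its palmitate libraries. Over its 11 alternatives the adjusted p for Fscn1 was never below 0.224. Myl9 had 0.26 ± 0.11 (0.292), Tpm1 0.034 ± 0.047 (0.808) and Tpm2 -0.017 ± 0.11 (0.969).

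The calls in palmitate rested on individual libraries. Without palmitate replicate 2, or without palmitate plus A66 replicate 1, none of the 3 was called, with adjusted p-values between 0.130 and 0.506, and the count over all genes fell from 410 to 147 or 191. The log2 fold change of Acta2 fell from 0.35 to 0.23 without the first of these libraries and to 0.14 without the second, and that of Tagln from 0.35 to 0.23 in either case, whereas without palmitate plus A66 replicate 2 that of Acta2 was 0.53. In DESeq2, Acta2 (adjusted p = 0.416) and Tagln (0.289) were not called, whereas Actb (0.0246) and Vim (0.0119) were. Tagln was also lost with scaling by library size only (0.0558). Actg1 was called by both tools in both A66 comparisons.

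Palmitate alone moved the members little. None of the 9 was called against untreated cells (edgeR's quasi-likelihood test, 171 of 14587 genes called, or 1.17%), and none was in DESeq2. Of these, Actg1, Fscn1 and Vim had an unadjusted p under 0.05, as did 1753 of the 14587 genes (12%). Their log2 fold changes were 0.13 ± 0.044 for Actg1 (adjusted p = 0.207), 0.12 ± 0.050 for Fscn1 (0.322) and 0.095 ± 0.043 for Vim (0.365). The contractile genes had negative values, -0.18 ± 0.097 for Tagln (0.492), -0.14 ± 0.088 for Acta2 (0.569) and -0.073 ± 0.12 for Myl9 (0.861). Without the filter on low counts Actg1 was called (adjusted p = 0.0430).

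When palmitate was added to A66, none of the 9 members was called in edgeR either, against 2.73% of all genes in either direction, while Actg1 was called in DESeq2 (adjusted p = 0.0168). Actg1 had the highest log2 fold change, 0.16 ± 0.044 (adjusted p = 0.0623 in edgeR), and Tagln the lowest, -0.27 ± 0.094 (0.138). At an unadjusted p under 0.05, which 14.6% of all genes had, there were 3, these 2 and Actb with 0.0225 (log2 fold change 0.10 ± 0.041), and the other 6 lay between -0.055 for Tpm2 and 0.049 for Vim. This comparison shares libraries with both A66 comparisons.

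The interaction, which tests whether the A66 effect differed between cells with and without palmitate, called no member in edgeR or DESeq2, and no member had an unadjusted p under 0.05, against 7.92% of all genes. The member values ran from -0.12 ± 0.16 for Tpm2 to 0.12 ± 0.12 for Acta2, and every adjusted p was at least 0.841. For Fscn1 the interaction was -0.081 ± 0.070. Among all genes 1 was called, or 0.00686%, Hmox1, named here after its value was seen. Calls for Vim and Fscn1 without palmitate and not with it are therefore not shown to differ.

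**Figure D3:**
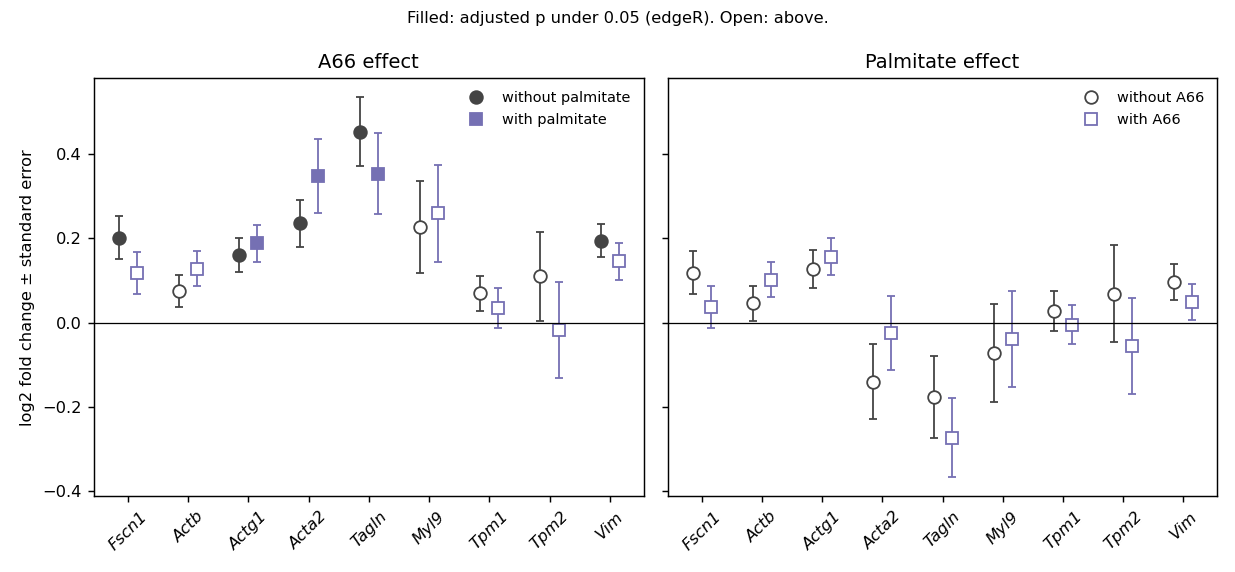
Log2 fold change ± SE (edgeR) of the 9 tested members for A66 (left, without and with palmitate) and for palmitate (right, without and with A66), filled where the adjusted p was under 0.05. Tagln has the highest A66 values, 0.45 and 0.35, and all 18 palmitate values are open.

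The regulators of SRF were examined at the transcript level. Of 7 genes (Srf, the coactivators Mrtfa, Mrtfb and Myocd, and the ternary complex factors Elk1, Elk3 and Elk4), 6 were tested and none was called in any comparison by edgeR or DESeq2. Only Srf, with palmitate added to A66, had an unadjusted p under 0.05 (0.0306), as did 14.6% of all genes there, and 2.73% were called. With A66 their log2 fold changes ran from -0.067 ± 0.075 for Mrtfa to 0.013 ± 0.062 for Elk4, with a median of -0.039. Srf stayed between 26.1 and 29.9 CPM over the 8 libraries and Mrtfb between 54.1 and 58.2. Myocd, the coactivator of cardiac and smooth muscle, had 2 counts in 1 palmitate library and none in the other 7. In palmitate, A66 gave Srf a log2 fold change of 0.11 ± 0.062 (adjusted p = 0.432 in edgeR).

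Among 20 further genes known as SRF targets, 1 was higher with A66 alone and 3 were higher with A66 in palmitate, and none was lower in either, where 1.07% and 0.973% of all genes were higher. Thbs1, which encodes the matrix glycoprotein thrombospondin-1, was called in both. Thbs1 measured 252 and 237 CPM untreated, 300.3 and 295 in A66, 239 and 209 in palmitate, and 324 and 270.4 under both agents, so that every library with A66 lay above every library without it. Its log2 fold changes were 0.29 ± 0.041 without palmitate (adjusted p = 3.47e-04 in edgeR) and 0.41 ± 0.064 with it (7.12e-04). Both calls held under each of the 11 alternatives run. The list medians were 0.052 and 0.093, against -0.0011 and -0.0008 over all genes, and 16 of the 20 were positive in each comparison.

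The other 2 targets called in palmitate were Ccn1 and Fhl2. Ccn1, a secreted matricellular protein also regulated by YAP, measured 29.6 and 31.1 CPM untreated, 31.7 and 40.8 in A66, 28.3 and 27.0 in palmitate, and 43.4 and 38.6 under both agents. Its log2 fold change was 0.57 ± 0.083 in palmitate (adjusted p = 4.13e-04 in edgeR) and 0.25 ± 0.082 without it (0.142), and the first call held under all 11 alternatives. Fhl2, a LIM-domain protein of focal adhesions and the nucleus, measured 9.07 and 10.9 CPM, 11.7 and 13.0 CPM, 9.51 and 10.0 CPM, and 13.8 and 12.4 CPM in the same order of groups. It had log2 fold changes of 0.43 ± 0.10 in palmitate (0.0233) and 0.31 ± 0.10 without it (0.164), and the first was lost without palmitate replicate 1 (0.103), palmitate replicate 2 (0.0831) or palmitate plus A66 replicate 1 (0.220). For both genes all A66 libraries lay above all libraries without A66.

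Promoter windows were matched for 17 of these 20 targets. An exact match to the CArG box was held by 5 of the 17 genes (29.4%), Fhl2, Vcl, Lima1, Filip1l and Fhl1, against 1.81% of 27025 genes. Of these 5 only Fhl2 was called with A66 in palmitate, and none was without it. Fhl2 is shown as the called target with a box, in the window chr1:43163912-43164211 (minus strand), where the box, in capitals, begins 31 bases before the start. Another Fhl2 start has a box too, 96 bases before it.
Fhl2: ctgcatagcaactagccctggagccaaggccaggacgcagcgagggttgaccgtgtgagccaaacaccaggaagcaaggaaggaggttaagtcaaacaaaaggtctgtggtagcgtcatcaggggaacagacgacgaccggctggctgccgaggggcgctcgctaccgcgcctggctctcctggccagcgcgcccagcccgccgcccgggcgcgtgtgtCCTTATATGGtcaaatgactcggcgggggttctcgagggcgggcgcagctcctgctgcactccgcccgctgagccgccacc

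Relatives of the members behaved unevenly. Cnn2, the non-muscle calponin, measured 48.5 and 48.0 CPM untreated, 56.1 and 59.6 in A66, 45.4 and 42.9 in palmitate, and 54.9 and 48.4 under both agents. It rose with A66 both without palmitate (log2 fold change 0.26 ± 0.052, adjusted p = 0.00617 in edgeR) and with it (0.23 ± 0.058, 0.0325). The first call was lost without A66 replicate 2 (0.177), and the second without palmitate replicate 2 (0.278) or palmitate plus A66 replicate 1 (0.426, where the log2 fold change fell to 0.13) and with scaling by library size only (0.0557). Tpm4, a non-muscle tropomyosin, was called with A66 in palmitate (0.20 ± 0.046, 0.0159), though not without palmitate replicate 2 (0.248) or palmitate plus A66 replicate 1 (0.233). Without palmitate Tpm4 had 0.070 ± 0.041 (0.503), and the interaction was not called (adjusted p = 0.641). Tagln2, a transgelin of many cell types, was higher with palmitate plus A66 than with A66 (0.26 ± 0.062, 0.0187), but not when A66 replicate 1 (0.317) or palmitate plus A66 replicate 1 (0.334) was left out. Of the other muscle actins, Acta1 was low, with 34 to 106 counts a library. It measured 0.801 and 0.851 CPM untreated, 1.08 and 1.17 in A66, 1.26 and 1.10 in palmitate, and 1.98 and 2.13 under both agents. Actg2 lay between 1.73 and 2.86 CPM, and neither was called in any comparison by edgeR or DESeq2. Actc1 had no count in any library. Fscn2 and Fscn3, the retinal and testis fascins, had at most 6 and 2 counts in a library, so Fscn1 was the only fascin above the filter.

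Among genes of filament turnover, Tmsb4x and Capg rose with A66 alone. Tmsb4x, thymosin β4, which holds actin monomers, measured 89.7 and 101 CPM in untreated cells and 122 and 120 with A66 (log2 fold change 0.35 ± 0.049, adjusted p = 3.18e-04 in edgeR), a call that held under all 11 alternatives. In palmitate Tmsb4x was 110 and 101 CPM without A66 and 116 and 108 with it, which overlap (0.083 ± 0.053, 0.515). Its interaction had an unadjusted p of 0.00234 and an adjusted p of 0.364. Capg, which caps filament ends, had 0.25 ± 0.061 without palmitate (0.0350) and 0.18 ± 0.059 with it (0.112). The Capg call was lost without untreated replicate 1 (0.0589), A66 replicate 1 (0.193) or A66 replicate 2 (0.255), in DESeq2 (0.0760) and with scaling by library size only (0.0508).

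Gsn went the other way in the palmitate groups. It encodes gelsolin, which severs filaments, and it measured 698 and 675 CPM untreated, 702 and 678 in A66, 623 and 642 in palmitate, and 564 and 557 under both agents. Gsn fell with A66 in palmitate (log2 fold change -0.17 ± 0.041, adjusted p = 0.0180 in edgeR) and with palmitate in A66 (-0.30 ± 0.041, 6.85e-05). The second held under all 11 alternatives, and the first was lost without palmitate replicate 2 (0.129), palmitate plus A66 replicate 1 (0.101) or its replicate 2 (0.146). Flnc, the muscle filamin, rose with palmitate (0.21 ± 0.051, 0.0448) and with palmitate in the presence of A66 (0.32 ± 0.051, 4.70e-04). The first Flnc call was lost without untreated replicate 1 (0.139), untreated replicate 2 (0.17) or palmitate replicate 1 (0.501, where the log2 fold change fell to 0.13) and with scaling by library size only (0.064). Zyx, zyxin of focal adhesions, was called with palmitate added to A66 (0.20 ± 0.053, 0.0393), except without A66 replicate 1 (0.518, where the log2 fold change fell to 0.13) or palmitate plus A66 replicate 1 (0.407) and with scaling by library size only (0.0576). In that comparison of both agents with A66, 6 of 10 adipocyte markers were lower as well, as described with the markers.

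Over all cytoskeletal lists without the members, 96 of 110 genes were tested. With A66 alone 4 were higher and none lower, with a median log2 fold change of 0.036, and with A66 in palmitate 5 were higher and 1 lower. Of all genes 1.07% were higher with A66 alone, and in palmitate 0.973% were higher and 1.84% lower. None of 11 myosin II genes, 21 genes of actin nucleation or 7 other intermediate filament genes was called in either by edgeR, and DESeq2 called 1, Myh9, in palmitate. At an unadjusted p under 0.05 there were 0, 2 and 3 of them with A66 alone, and 6, 2 and 0 with A66 in palmitate, where 12.8% and 14.4% of all genes had such a p. Their medians with A66 alone were 0.044, 0.027 and 0.047.

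**Figure D4:**
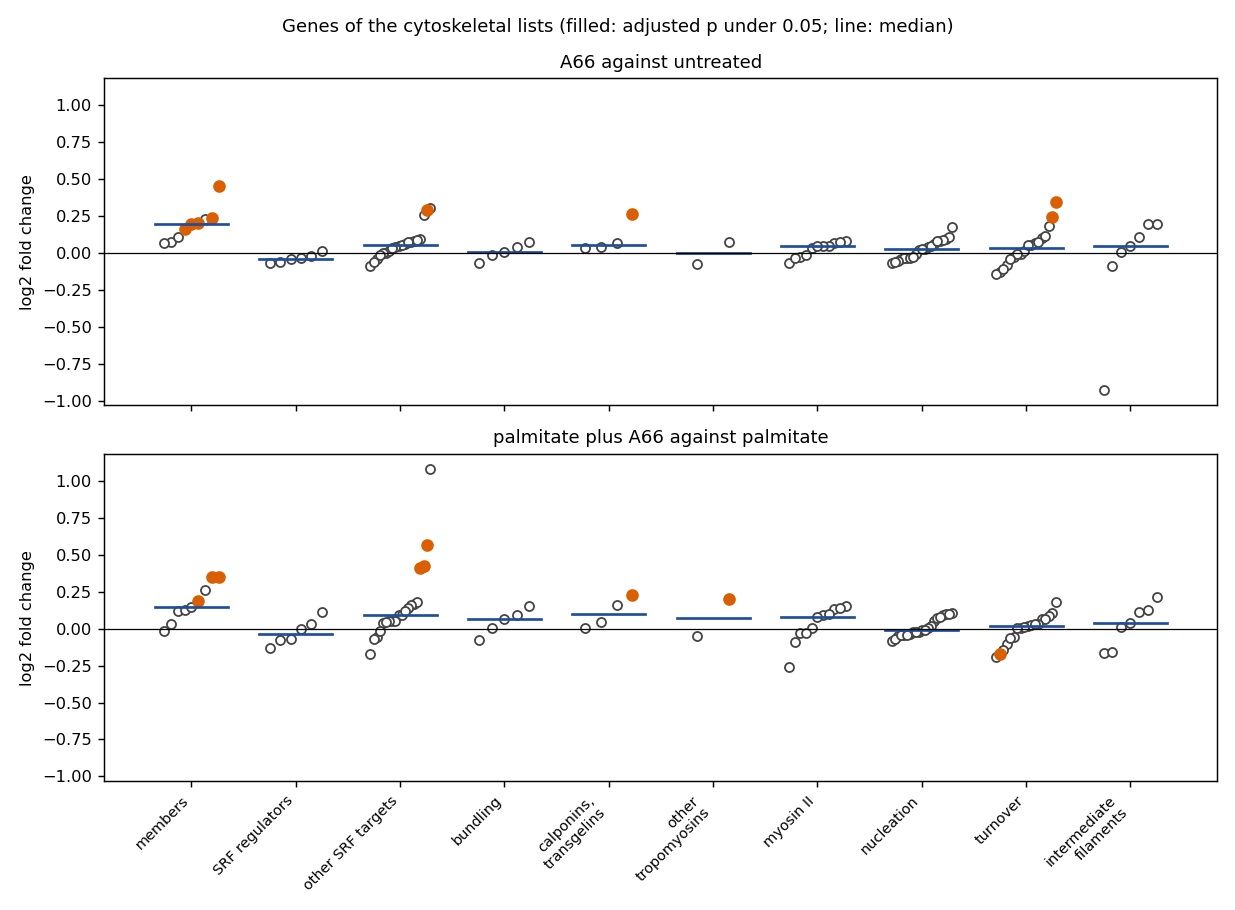
Log2 fold changes (edgeR) of the tested genes of each list for A66 without palmitate (top) and with it (bottom). Points are genes, orange where the adjusted p was under 0.05, and lines are list medians. The members have medians of 0.19 and 0.14, and the SRF regulators -0.039 and -0.035.

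The members fell into looser and tighter company across the 8 libraries. As a description, over log2 CPM values that share treatment groups and scaling, Fscn1 followed Vim with a Pearson r of 0.900, Actb with 0.873 and Actg1 with 0.862, and Tagln with only 0.530. Actg1 and Vim gave 0.941, and Acta2 and Tagln gave 0.909, whereas Actg1 and Tagln gave 0.370. Of all 14587 genes, the 5 most like Fscn1 were Cmc4 (0.984), Rab43 (0.968), C1ra (0.960), Rnase4 (0.959) and Plscr1 (0.954). The 5 with the highest mean r to the other 8 tested members were Rab11fip2 (0.797), Dusp4 (0.782), Dpy19l4 (0.778), Pawr (0.767) and Snx33 (0.759).

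Rnase4, a secreted ribonuclease, and Dusp4, a phosphatase of MAP kinases, were looked at further. Both were picked for following Fscn1 or the other members over these same libraries, a choice that already favours a difference with A66, so their values are a description with no test. Rnase4 measured 32.0 and 30.6 CPM untreated, 40.4 and 38.1 in A66, 37.6 and 34.5 in palmitate, and 45.4 and 43.6 under both agents. Its log2 fold change with A66 was 0.33 ± 0.060 without palmitate and 0.30 ± 0.058 with it, and that of Dusp4 was 0.31 ± 0.070 and 0.37 ± 0.081.

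Markers of cell types that such a culture could hold were set beside these values. In bulk RNA, fewer cells of a type and less RNA per cell cannot be told apart. With A66 alone none of 10 adipocyte, 11 fibroblast and 6 smooth muscle markers was called in edgeR or DESeq2, though 5, 5 and 2 had an unadjusted p under 0.05 in edgeR, against 12.8% of all genes. The summed adipocyte markers were 16908 to 17036 CPM in untreated cells and 16599 to 17176 with A66, and the fibroblast markers 7695 to 7995 and 7725 to 7778. The 6 smooth muscle markers summed to 78.9 to 82.4 and 84.6 to 88.8 CPM, higher in both A66 libraries. Of the 6, 4 had a positive log2 fold change, Des with 0.19, Lmod1 with 0.27, Synpo2 with 1.07 and Actg2 with 0.12, and Myh11 and Smtn had -0.067 and -0.018, with a median of 0.16. Synpo2 had only 8 and 21 counts untreated and 42 and 20 in A66. Actg2 overlapped between the groups, at 2.64 and 2.07 CPM untreated and 2.24 and 2.86 in A66. Most of the rise in the sum was Des, at 42.2 and 40.7 CPM untreated and 48.98 and 45.5 in A66. With A66 in palmitate, 3 of 10 adipocyte markers (Cidec, Retn, Slc2a4) and 2 of 11 fibroblast markers (Col1a1, Postn) were lower, against 1.84% of all genes, and 1 of 6 smooth muscle markers (Lmod1) was higher in edgeR. In DESeq2 the calls of Cidec and Lmod1 were lost, Col1a2 and Col3a1 were lower in addition, and Ly6a was higher. The sums with palmitate and with both were 15068 to 15875 and 14516 to 15478 CPM for adipocyte markers, 8145 to 8559 and 7362 to 7677 for fibroblast markers, and 80.2 to 84.7 and 80.6 to 86.4 for smooth muscle markers. Palmitate alone went with lower Lpl and higher Col1a1 and Postn in edgeR, and DESeq2 called Col1a2 higher too. With palmitate in A66, where Gsn, Flnc, Zyx and Tagln2 were called, 6 of 10 adipocyte markers (Adipoq, Cidec, Lpl, Plin1, Retn, Slc2a4) and 2 of 11 fibroblast markers (S100a4, Zfp423) were lower in edgeR, against 1.27% of all genes, and DESeq2 gave the same calls except Cidec. The 4 macrophage markers summed to 2.76 to 5.94 CPM, nearly all from Cd68 (2.57 to 5.74 CPM), which was higher with palmitate in A66 in both tools (log2 fold change 0.91 ± 0.16, adjusted p = 0.00140 in edgeR), while Adgre1 was at 0 in every library. The 3 endothelial markers summed to 0.346 to 0.832 CPM, nearly all from Pecam1, while Kdr was at 0 in every library. The part of any of these in the values of the members and of the other genes named was not tested.

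Reads of Actg1 can also match its pseudogenes. Of 1853 windows of 100 bases along the Actg1 transcript, 946 (51.1%) occurred exactly in the transcript of another gene, and the 6 genes concerned are all processed pseudogenes. The leading one, Gm12715, had only 184 to 241 counts a library. For Actb 1.1% of windows were shared, with Lrrc58 and Gm15725, and for the other 8 members none. How the counting treated such reads was not given in the sources used here, so the Actg1 level is uncertain to that extent.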

How the data were processed

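Polyadenylated RNA from 8 cultures was sequenced with paired reads. Per the labels and the study's methods, the authors aligned reads to GRCm38 with TopHat2 2.0.11 and deposited raw HTSeq counts per Ensembl gene, without normalization. The annotation release and strand setting of the counting were not given in the sources used here. The labels give 2 µM A66 against untreated cells, and the methods 1 µM against DMSO. Columns of the authors' own DESeq2 comparison (fold changes and p-values) were not used.

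Symbols were matched for 42462 of 43629 genes in GENCODE M21 (GRCm38), which gave coordinates and exon lengths. Counts were tested in R 4.3.3 with edgeR 4.0.16 (TMM, filterByExpr with a minimum count of 10, two-sided quasi-likelihood test, Benjamini-Hochberg adjustment over all genes tested, threshold 0.05). A66 against untreated used its own 4 libraries, and the other comparisons all 8. Biological coefficients of variation were 0.0377 and 0.0406. Replicates differed by more than counting noise (mean chi-square per gene 6.15 to 8.99). Log2 CPM for correlations used a pseudocount of 0.5 CPM. Scripts were tested on simulated data.

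The members and lists were chosen with earlier results of these data known. Named genes were all members and SRF regulators, at most 4 called genes of each other list (the smallest p), and the 5 most correlated genes. Marker genes named are those called, and a few others were named after their values were seen. Alternatives were RLE scaling, library size only, DESeq2 1.42.0, no filter, a stricter filter of at least 10 counts everywhere, a change in which libraries were fitted, a replicate block, and leaving out each library. For genes other than the members these were added after seeing the data. One list of genes is not reported here.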

Additional observations from a re-analysis of the deposited data

How the results depend on the processing

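With A66 alone, all 9 members stayed positive under every alternative run, and the 5 called became 3 with library size only, 3 in DESeq2 and 3 with all 8 libraries, or 0 to 4 with a library left out. In palmitate the 3 called became 2 with library size only, 5 without a filter and 0 to 3 with a library left out. Against A66, palmitate plus A66 called 0 members, but 1 in DESeq2, 2 without a filter, 1 in its own 4 libraries and 0 to 1 with a library left out, and palmitate alone called 1 member without a filter. The genes called without a filter were 459 for A66 (261 with it), 396 for palmitate (171), 652 for A66 in palmitate (410), 664 for palmitate in A66 (398) and 91 for the interaction (1). The own-library fit gave 689 for palmitate in A66. The interaction gave 2 genes with library size only, 8 in DESeq2 and 3 with a replicate block. Leaving out each library gave 98 to 635, 71 to 245, 147 to 426, 107 to 346 and 0 to 10 genes in the same order. Scaling by library size only lowered the share of higher calls from 58.2 to 45% for A66, from 53.8 to 44.1% for palmitate, from 34.6 to 23.4% for A66 in palmitate and from 53.5 to 40.4% for palmitate in A66. The cause of these shifts was not tested.

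With a replicate block, A66 called 282 genes, 257 of them among the 261, and the same 5 members. The numbers share only a label, as deviations of same-numbered libraries correlated between -0.081 and 0.109 over 11970 genes.

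Signs turned only in uncalled values with 1 library left out. The ranges of log2 fold change were, for palmitate, -0.050 to 0.10 (Tpm1) and -0.24 to 0.073 (Myl9). For A66 in palmitate they were -0.19 to 0.14 (Tpm2) and -0.038 to 0.11 (Tpm1). For palmitate in A66 they were -0.23 to 0.15 (Acta2), -0.027 to 0.017 (Tpm1), -0.23 to 0.10 (Tpm2) and -0.012 to 0.085 (Fscn1). For the interaction they were -0.096 to 0.0012 (Vim), -0.023 to 0.079 (Actg1), -0.091 to 0.30 (Acta2), -0.24 to 0.056 (Tagln), -0.11 to 0.045 (Tpm1), -0.11 to 0.20 (Myl9) and -0.30 to 0.034 (Tpm2).

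A fit with 1 library in a group assumes that it varies like the other groups. With 2 libraries a group the spread is poorly known, and changes under the floor of 3 counts could not be seen.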
